A study of Mus musculus with 9 samples.

Results

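The unfolded protein response and the integrated stress response were followed through 32 genes: chaperones and folding enzymes of the endoplasmic reticulum (ER), genes of ER-associated degradation, the stress sensors with their transcription factors, and targets of ATF4. They were picked by symbol from what is known of the pathways. The rule uses no measured value, but the list was chosen with earlier results of these data known. All 32 were listed among the 16367 genes of the sorted-cell table and among the 17035 genes of the culture table. The data were RNA sequencing of wild-type mouse retinal cells in 9 libraries, 3 in each of 3 groups. Cells of 6 libraries were dissociated from pools of 4 retinas and captured with an antibody against GLAST, a glutamate transporter carried by Müller glia, which span the retina and support its neurons. Of these, 3 libraries came from sham eyes, which received a corneal cut only. The other 3 came from eyes with ocular hypertension (OHT), whose front chamber received 1.2 µL of silicone oil. The last 3 libraries were untreated primary Müller glia cultures, grown in serum and passaged after confluence, from C57BL/6J pups 8 to 10 days old. The sources used here state neither the age of the operated animals nor the time from injection to collection.

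Proteins that enter the ER are folded by BiP and other chaperones and by disulfide isomerases. When unfolded proteins accumulate, the membrane sensors IRE1, ATF6 and PERK are activated. IRE1 splices the Xbp1 transcript and ATF6 is cleaved, and both yield factors that raise chaperone and degradation genes. PERK phosphorylates the initiation factor eIF2α, as do kinases that sense other stresses; this lowers general translation and favours translation of ATF4 and ATF5. ATF4 and CHOP, the product of Ddit3, then act on amino acid and feedback genes. In the retina these pathways are studied in glia and neurons under pressure, light and inherited protein misfolding.

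Promoter sequences are shown first because the arms of the response are defined by the elements they act through. RefSeq promoter windows (build GRCm38.p6) matched 29 of the 32 genes, all except Hyou1, Manf and Atf6, and the 250 bases upstream of each start were searched on both strands. The ER stress response element, ERSE, was searched as CCAAT and CCACG with 9 bases of any kind between them. Its CCAAT part is bound by NF-Y and its CCACG part by ATF6 and XBP1. It was present in 8 of the 29 promoters (27.6%), against 35 of 27025 genes with a promoter (0.130%). The genes were picked from what is known of these pathways, so an excess was built into the choice and is not a result of these data. The related ERSE-II, ATTGG and CCACG with 1 base between them, was present in 1 of 29, Herpud1, against 0.0370% of all genes. The 10 stretches below carry these matches. Capitals mark the fixed letters of the element, or of its reverse complement in Calr, Creld2 and the downstream match of Hsp90b1. Coordinates are those of GRCm38.p6, which is not the build (mm39) named in the submitters' processing notes.
Hspa5, ERSE, chr2:34772000-34772068 (+ strand): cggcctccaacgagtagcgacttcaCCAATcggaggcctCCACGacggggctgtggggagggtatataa
Hsp90b1, ERSE, chr10:86705613-86705681 (- strand): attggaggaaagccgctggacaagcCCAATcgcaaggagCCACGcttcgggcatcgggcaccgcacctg
Hsp90b1, ERSE, chr10:86705508-86705576 (- strand): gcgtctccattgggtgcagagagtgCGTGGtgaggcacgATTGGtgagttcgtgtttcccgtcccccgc
Canx, ERSE, chr11:50325775-50325843 (- strand): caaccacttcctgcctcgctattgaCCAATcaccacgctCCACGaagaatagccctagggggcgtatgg
Calr, ERSE, chr8:84847050-84847118 (- strand): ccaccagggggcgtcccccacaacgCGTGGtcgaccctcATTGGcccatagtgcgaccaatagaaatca
Dnajc3, ERSE, chr14:118937802-118937870 (+ strand): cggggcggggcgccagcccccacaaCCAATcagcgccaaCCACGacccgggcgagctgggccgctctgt
Creld2, ERSE, chr15:88819495-88819563 (+ strand): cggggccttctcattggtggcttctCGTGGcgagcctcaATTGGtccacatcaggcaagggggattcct
Pdia6, ERSE, chr12:17266466-17266534 (+ strand): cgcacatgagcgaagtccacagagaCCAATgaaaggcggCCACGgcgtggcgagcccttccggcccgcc
Syvn1, ERSE, chr19:6046507-6046575 (+ strand): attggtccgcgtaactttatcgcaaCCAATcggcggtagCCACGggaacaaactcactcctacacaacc
Herpud1, ERSE-II, chr8:94386352-94386412 (+ strand): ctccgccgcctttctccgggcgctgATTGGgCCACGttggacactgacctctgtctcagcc

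The C/EBP-ATF response element, CARE, bound by ATF4 with C/EBP partners, was searched as TGATGNAA and was present in 3 of 29 promoters, against 3.91% of all genes. These 3 stretches are shown because they belong to 2 ATF4 targets and to Herpud1, which also carries ERSE-II. Capitals mark the fixed letters, in reverse complement for Chac1 and Herpud1. The element TGACGTGG (UPRE), another site of XBP1 and ATF6, was in 0 of 29 windows and in 0.603% of all genes. None of these matches is a measured binding site, and no printed match shared positions with another.
Chac1, CARE, chr2:119351024-119351081 (+ strand): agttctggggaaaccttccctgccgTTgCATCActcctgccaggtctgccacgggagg
Asns, CARE, chr6:7693210-7693257 (- strand): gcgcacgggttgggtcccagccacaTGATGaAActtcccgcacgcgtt
Herpud1, CARE, chr8:94386292-94386349 (+ strand): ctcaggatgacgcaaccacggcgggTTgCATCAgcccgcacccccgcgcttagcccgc

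The sorted libraries held 37.8 to 53.6 M (1e6) reads and the cultures 66.3 to 76.7 M, so that 1 read was worth 0.0130 to 0.0264 ppm (reads per 1e6 reads of the library). Values below are normalised read counts as deposited unless given in ppm. Of the cell type lists, 14 Müller glia genes took 0.598% ± 0.315 of sham and 0.301% ± 0.140 of OHT reads (SD, n = 3), and 12 microglia and macrophage genes took 4.13% ± 1.04 and 5.45% ± 0.793. The rod list took 1.82% ± 1.33 of sham and 0.208% ± 0.156 of OHT reads. In the cultures the Müller glia list held 0.379% ± 0.0431, but Vim, which many cell types express, and Prdx6 made up most of it. The other 12 genes held 0.0330% ± 0.00827 there, against 0.517% ± 0.291 in sham. Rlbp1, a defining Müller gene, was at 1.60 to 2.84 ppm there, against 389.1 to 2090 ppm in sorted cells. Mural and fibroblast genes took 1.78% ± 0.150 of culture reads, with Acta2 at 8134 to 13250 ppm and Col1a1 at 4121 to 6521 ppm. The list was not uniform: Rgs5 was lower in culture, at 2.58 to 3.44 ppm against 101.5 to 226.4 in sham, and Lum was at 0.169 to 0.370 ppm. Microglia and macrophage genes thus took more reads than Müller glia genes in all 6 sorted libraries. In such bulk samples, fewer cells of a type and less RNA per cell cannot be told apart.

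No gene of the response passed the test between OHT and sham. limma, fitted to log2(value + 1) of all 14403 genes with a mean of at least 10, called 0 of the 32 at an adjusted p under 0.05, against 0% of all genes. edgeR also called 0 of 32 and 0% of all genes, and DESeq2 called 0 of 32 against 1.80% of genes. At an unadjusted limma p under 0.05 there were 2 of 32 (6.25%), Serpinh1 and Atf5, both lower in OHT, against 11.7% of all genes in either direction and 6.30% in that direction. In edgeR 2 of 32 had an unadjusted p under 0.05, against 10.9% of all genes, and in DESeq2 4 of 32, against 14.3%. Groups did not overlap in 2 of 32, P4hb and Atf5, against 18.4% of all genes. In ppm of library reads, an alternative chosen after the values were seen, 0 of 32 were higher without overlap, against 5.44% of all genes, and 3 of 32 were lower, against 11.4%: Creld2, Sel1l and Atf5. Atf5 alone was separate on both scales.

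The median log2 difference (OHT minus sham) of the 32 genes was 0.09, beside -0.12 for all genes tested. After quantile normalization, which moved the median of all genes to 0.01, that of the 32 was -0.05, so even the order of the 2 medians depended on the scaling. Within sham the genes were close together across replicates, with a median SD of 0.32 on the log2 scale, against 0.44 for all genes. Within OHT the median SD was 0.82, against 0.90. Together the 32 genes took 0.661% to 0.973% of sham reads and 0.682% to 1.02% of OHT reads.

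**Figure D1:**
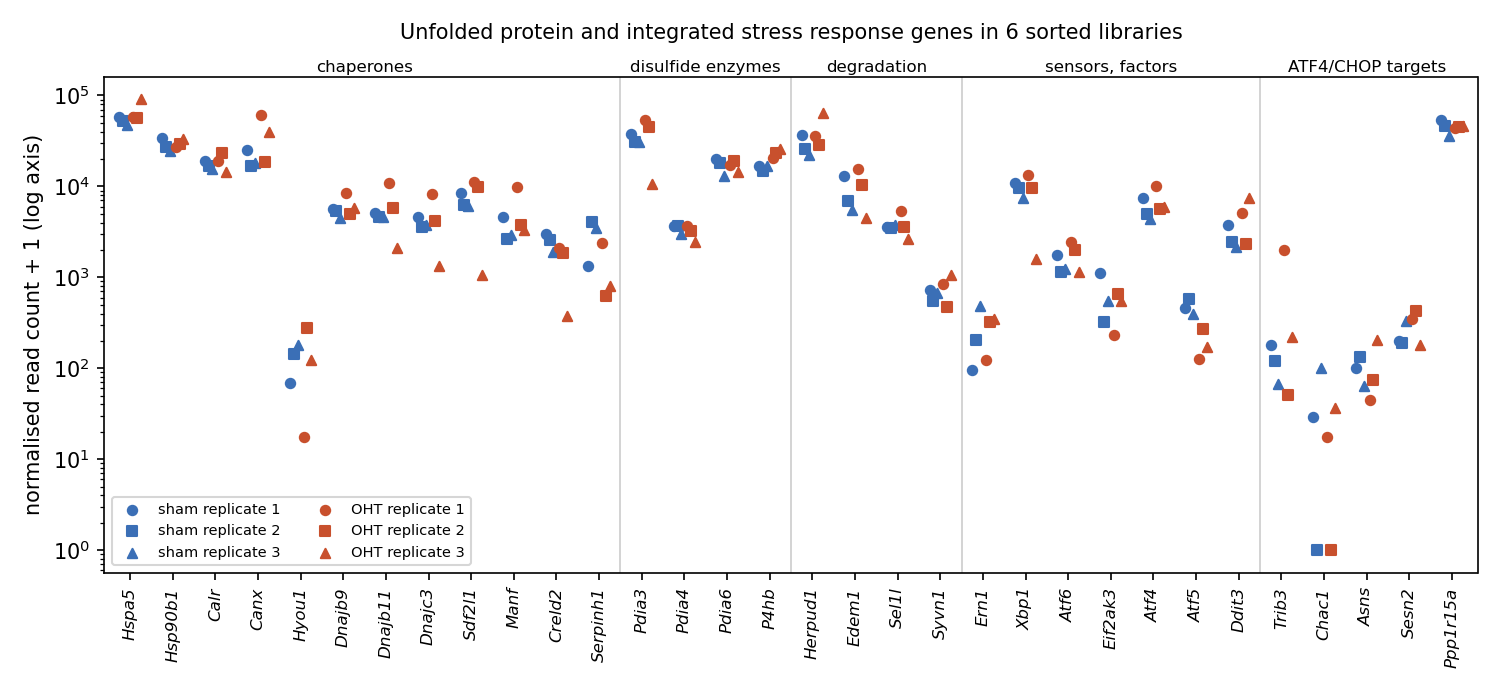
Normalised read count + 1 (log axis) of each of the 32 genes in the 3 sham (blue) and 3 OHT (red) libraries, with 1 symbol per replicate number and genes ordered by role. The symbols of both groups intermingle for all genes except P4hb and Atf5, and OHT replicate 3 (red triangles) lies far below the rest for Sdf2l1, Creld2 and Xbp1.

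Among the chaperones, Hspa5 encodes BiP, the Hsp70 chaperone of the ER lumen that also holds the sensors inactive. It had 57269, 51951 and 47094 counts in sham and 58542, 55930 and 91333 in OHT. OHT replicate 3 alone stood above sham by a clear margin, and OHT exceeded sham by 0.36 on the log2 scale (SE 0.35, limma adjusted p 0.670). Hsp90b1, the ER member of the Hsp90 family, had 33972, 27223 and 24289 counts in sham and 27401, 29077 and 33566 in OHT, which overlapped throughout. The lectin chaperones calreticulin (Calr) and calnexin (Canx) hold newly made glycoproteins. Calr ranged from 15573 to 18845 in sham and from 14483 to 23456 in OHT. Canx had 25082, 16648 and 18157 in sham and 60434, 18733 and 39308 in OHT. For Canx, OHT replicates 1 and 3 were above every sham library and replicate 2 was within them, with a log2 difference of 0.85 (SE 0.43, limma adjusted p 0.463).

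Several proteins assist BiP. Dnajb9, Dnajb11 and Dnajc3 are J-domain proteins that pass clients to BiP. Dnajb9 ranged from 4444 to 5693 in sham and from 4949 to 8511 in OHT. Dnajb11 had 5089, 4637 and 4639 in sham, a 1.10-fold range, and 10842, 5779 and 2124 in OHT, a 5.11-fold range. Dnajc3 had 4559, 3591 and 3719 in sham and 8181, 4162 and 1334 in OHT. For both genes OHT replicate 1 was the highest of the 6 libraries and OHT replicate 3 the lowest. Sdf2l1, which works in a BiP complex, had 8549, 6191 and 6012 in sham and 11207, 9830 and 1049 in OHT. Its OHT libraries therefore lay on both sides of sham. Hyou1, the exchange factor of BiP, was low in every sorted library, at 68.2, 143.9 and 177.0 in sham and 16.6, 277.4 and 121.8 in OHT.

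Manf and Creld2 are ER-resident proteins that stressed cells can secrete. Manf had 4553, 2636 and 2927 in sham and 9932, 3798 and 3313 in OHT. Only OHT replicate 1 was above all sham libraries (log2 difference 0.61, SE 0.45, limma adjusted p 0.579). Creld2 had 3001, 2605 and 1877 in sham and 2081, 1867 and 375.0 in OHT. The log2 difference of Creld2 was -1.11 (SE 0.60, limma adjusted p 0.486), and it was -0.31 without OHT replicate 3.

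Serpinh1 encodes HSP47, the chaperone of procollagen. It had 1322, 4021 and 3506 counts in sham and 2378, 624.8 and 792.6 in OHT. Sham replicate 1 lay inside the OHT range. The log2 difference was -1.33 (SE 0.58, 95% interval -2.60 to -0.06, limma adjusted p 0.417; 0.318 to 0.906 over the alternatives). Mural and fibroblast genes, which as a list of 8 took 0.0115% to 0.0259% of sham reads and 8.88e-04% to 0.00404% of OHT reads, moved in the same direction, with Lum at 0 in all sham libraries and in 2 OHT libraries. The astrocyte list moved that way too, at 0.00417%, 0.0803% and 0.136% of reads in sham and 0.00511% to 0.0132% in OHT. Sham replicate 1 stood apart from the other sham libraries in both Serpinh1 and this list, and in the rod list (0.307% against 2.82% and 2.33%); without it the log2 difference of Serpinh1 was -1.83. The part of these cell types in the Serpinh1 values was not tested. Rgs5, the mural gene with the most reads, was at 101.5 to 226.4 ppm in sham and 4.85 to 29.4 ppm in OHT.

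The 4 disulfide isomerases were the steadiest role group in sham, with a median SD of 0.16 on the log2 scale. P4hb, protein disulfide isomerase itself and a subunit of collagen prolyl hydroxylase, had 16971, 14789 and 16565 in sham and 20356, 23577 and 25945 in OHT. All OHT libraries were above all sham libraries, the 1 such case among the 32 genes, where 9.26% of all genes showed it. The log2 difference of P4hb was 0.53 (SE 0.30, 95% interval -0.13 to 1.19). Its limma adjusted p was 0.501 (0.417 to 0.932 over the alternatives), and leaving out 1 library gave 0.45 to 0.62. The separation held for the deposited values only: in ppm, P4hb was at 309.4 in OHT replicate 1, below the sham libraries (375.9 to 434.3), and at 534.4 and 686.9 in the others. An exact two-sided permutation test gave p = 0.1 for P4hb, the smallest that 3 against 3 can give.

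Pdia3, the isomerase that works with the lectin chaperones, had 37884, 30889 and 30979 in sham and 53811, 44842 and 10601 in OHT. Here OHT replicates 1 and 2 were above sham and replicate 3 below it. In ppm, OHT replicate 1 was within the sham range (817.8 against 728.0 to 969.6). Without replicate 3 the log2 difference of Pdia3 turned from -0.17 to 0.57. Pdia4 ranged from 3029 to 3659 in sham and from 2474 to 3686 in OHT, and Pdia6 from 12934 to 20102 and from 14384 to 18942. Neither of these showed a separation, and their log2 differences were -0.15 (SE 0.33) and 0.00 (SE 0.32).

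Genes of ER-associated degradation remove proteins that fail to fold. Herpud1, a membrane protein of the degradation complex, had 36517, 25899 and 22368 in sham and 35778, 28795 and 64418 in OHT. Replicate 3 alone exceeded all sham libraries (log2 difference 0.55, SE 0.39, limma adjusted p 0.565; 0.21 without that library). Edem1, which recognises trimmed glycans, had 12890, 6959 and 5476 in sham and 15540, 10268 and 4493 in OHT, again on both sides of sham. In ppm, OHT replicate 1 of Edem1 was within the sham range (236.2 against 128.7 to 329.9). Sel1l and Syvn1 form the HRD1 ubiquitin ligase complex. Sel1l had 3531, 3501 and 3780 in sham and 5339, 3566 and 2648 in OHT. Syvn1 ranged from 541.4 to 718.0 in sham and from 475.0 to 1051 in OHT. The 4 log2 differences lay between 0.04 and 0.55, with limma adjusted p between 0.565 and 0.972; those of Edem1 and Sel1l turned to -0.20 and -0.24 after quantile normalization.

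The sensors themselves were expressed at low levels. Ern1, which encodes IRE1α, had 94.0, 203.9 and 486.1 in sham and 121.6, 322.7 and 343.0 in OHT. Eif2ak3, which encodes PERK, had 1121, 321.0 and 547.3 in sham and 230.7, 659.4 and 551.3 in OHT. The sham libraries alone spanned 5.17-fold for Ern1 and 3.49-fold for Eif2ak3, more than either OHT range. Atf6 had 1743, 1144 and 1249 in sham and 2473, 1981 and 1155 in OHT, a difference of 0.39 on the log2 scale (SE 0.42, limma adjusted p 0.701). Activation of these sensors is set by phosphorylation, splicing or cleavage and cannot be read from gene counts.

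Xbp1 had 10863, 9634 and 7548 in sham and 13466, 9720 and 1576 in OHT. Replicate 3 stood far below the other 5 libraries, and the log2 difference changed from -0.65 (SE 0.65, limma adjusted p 0.683) to 0.31 without it. Gene counts do not separate spliced from unspliced Xbp1. Atf4 had 7530, 4908 and 4400 in sham and 10189, 5658 and 5925 in OHT, with a log2 difference of 0.36 (SE 0.36, limma adjusted p 0.688). Ddit3 had 3765, 2430 and 2138 in sham and 5036, 2352 and 7506 in OHT. OHT replicates 1 and 3 exceeded sham and replicate 2 did not (log2 difference 0.73, SE 0.45, limma adjusted p 0.526; 0.35 without replicate 3). In ppm, OHT replicate 3 alone exceeded sham, with OHT replicate 1 at 76.5 and sham replicate 1 at 96.3.

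Atf5, a stress factor whose translation is controlled like that of ATF4, had 456.6, 578.3 and 394.2 in sham and 125.7, 270.8 and 168.3 in OHT. Every OHT library was below every sham library, also in ppm, as for 9.18% of all genes in the deposited values. The log2 difference was -1.39 (SE 0.63, 95% interval -2.77 to -0.01). Its limma adjusted p was 0.427 (0.248 to 0.906 over the alternatives), and leaving out 1 library gave -1.69 to -1.14. The annotated exons of Atf5 overlap those of Nup62 and Il4i1 on the other strand by 82 bases each, and those of Ddit3 overlap Mars by 68 bases. Without a stated strand rule, reads in these stretches cannot be assigned to either gene.

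None of the 5 targets of ATF4 and CHOP had an unadjusted limma p under 0.05. Ppp1r15a encodes GADD34, the phosphatase subunit that reverses eIF2α phosphorylation. It had 53796, 45925 and 35736 in sham and 43610, 44891 and 46045 in OHT, and all 3 OHT values lay within the sham range. In ppm, OHT replicate 1 was below that range (662.8 against 839.8 to 1377). Trib3, a pseudokinase that feeds back on ATF4, had 177.7, 119.9 and 66.0 in sham and 2002, 50.2 and 219.6 in OHT. OHT replicate 1 was 39.9-fold above replicate 2, and without it the log2 difference of 1.32 (SE 1.17) became -0.09.

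Chac1, which degrades glutathione, had 27.9, 0 and 99.5 in sham and 16.6, 0 and 35.3 in OHT. A count of 0 allows up to 0.0703 ppm in sham replicate 2 and 0.0560 ppm in OHT replicate 2, by counting error alone. Asns, asparagine synthetase, had 99.2, 131.0 and 63.2 in sham and 44.2, 74.1 and 201.1 in OHT. Sesn2, a stress-induced brake on growth signalling, had 200.4, 188.2 and 327.2 in sham and 351.0, 428.9 and 178.7 in OHT. The 5 targets had log2 differences from -0.73 to 1.32, with limma adjusted p between 0.642 and 0.992.

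**Figure D2:**
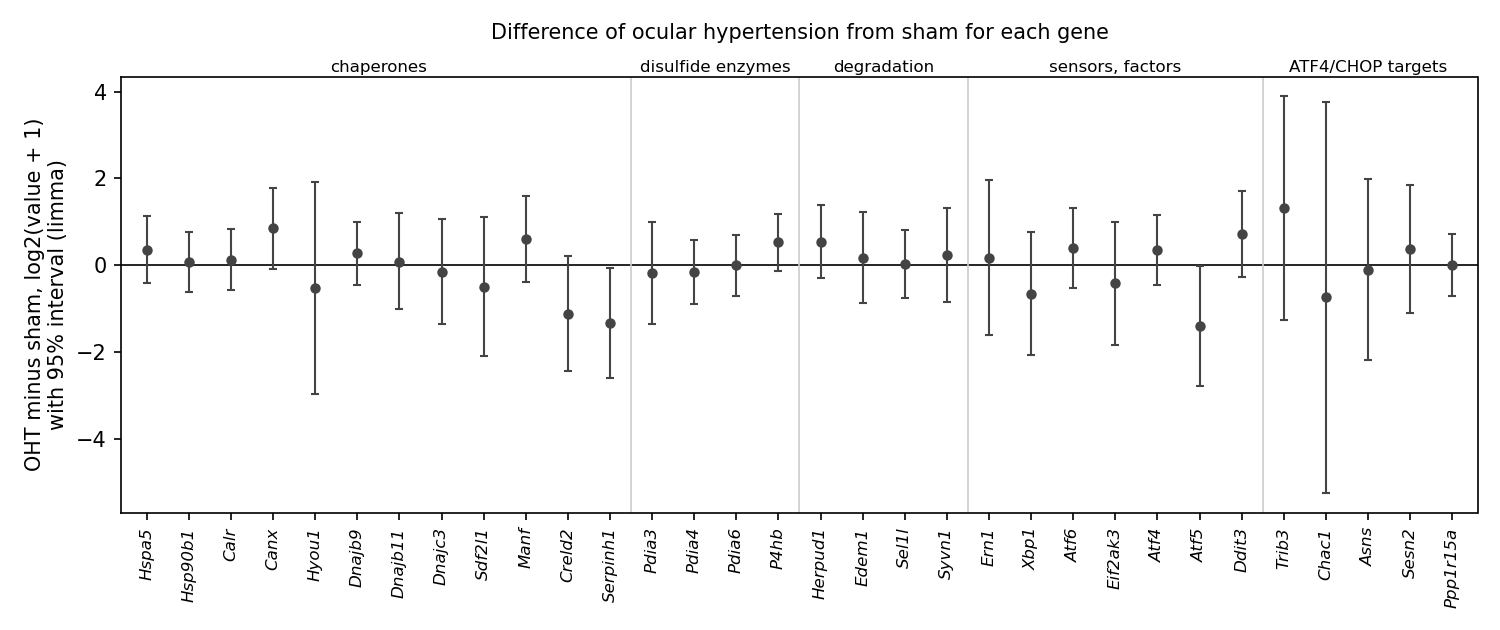
Difference of OHT from sham on the log2(value + 1) scale for each of the 32 genes, with the 95% interval of limma, n = 3 libraries per group. The intervals of Serpinh1 and Atf5 end just below 0 and the others span it, with adjusted p of 0.417 and 0.427 for these 2 genes.

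The OHT replicates departed from sham in different members. OHT replicate 3 was the lowest of the 6 libraries in 11 of 32 genes (34.4%), where it was lowest in 18.5% of all genes, and the highest in 6 (18.8%), against 14.1%. Among those 11, the largest departures were 6.65-fold below the sham mean for Creld2, 6.59-fold for Sdf2l1, 5.93-fold for Xbp1, 3.14-fold for Pdia3, 2.97-fold for Dnajc3 and 2.25-fold for Dnajb11. In the same library Ddit3 was 1.48 above the sham mean on the log2 scale, and Herpud1 was 2.28-fold and Hspa5 1.75-fold the sham mean. These genes were picked after their values were seen. An excess of lowest values was not limited to OHT: sham replicate 3 was the lowest library in 8 of 32 genes, against 9.54% of all genes. Sham replicate 3 was the highest library in 2 of 32, against 12.1%. Of the 9 genes with ERSE or ERSE-II in the promoters shown above, 5 were above the sham mean in OHT replicate 3, and of the 20 with neither, 9 were; this difference was not tested. Of the 9, Herpud1 was the highest, at 1.22 above the sham mean on the log2 scale, and Creld2 the lowest.

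In the deposited values, OHT replicate 1 was the highest library in 14 of 32 genes (43.8%), against 32.7% of all genes, and the lowest in 4 (12.5%), against 29.9%. This depended on the scaling: in ppm it stayed the highest, of these 14, only for Trib3, Manf, Dnajb11 and Dnajc3. Canx, for example, was at 918.5 ppm there and at 1041 in OHT replicate 3. The share of all genes was not taken in ppm. The highest were led by Trib3, Canx and Manf at 4.15, 1.62 and 1.60 above the sham mean on the log2 scale. For the 32 genes, Spearman's rho between how far OHT replicate 3 deviated and transcript GC content was 0.02, and 0.00 with transcript length, as a description of genes that share 1 library. Over 13530 genes these values were -0.21 and 0.06. Without OHT replicate 3 the median log2 difference of the 32 genes was 0.29, beside -0.04 for all genes, and limma still called 0 of 32.

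**Figure D3:**
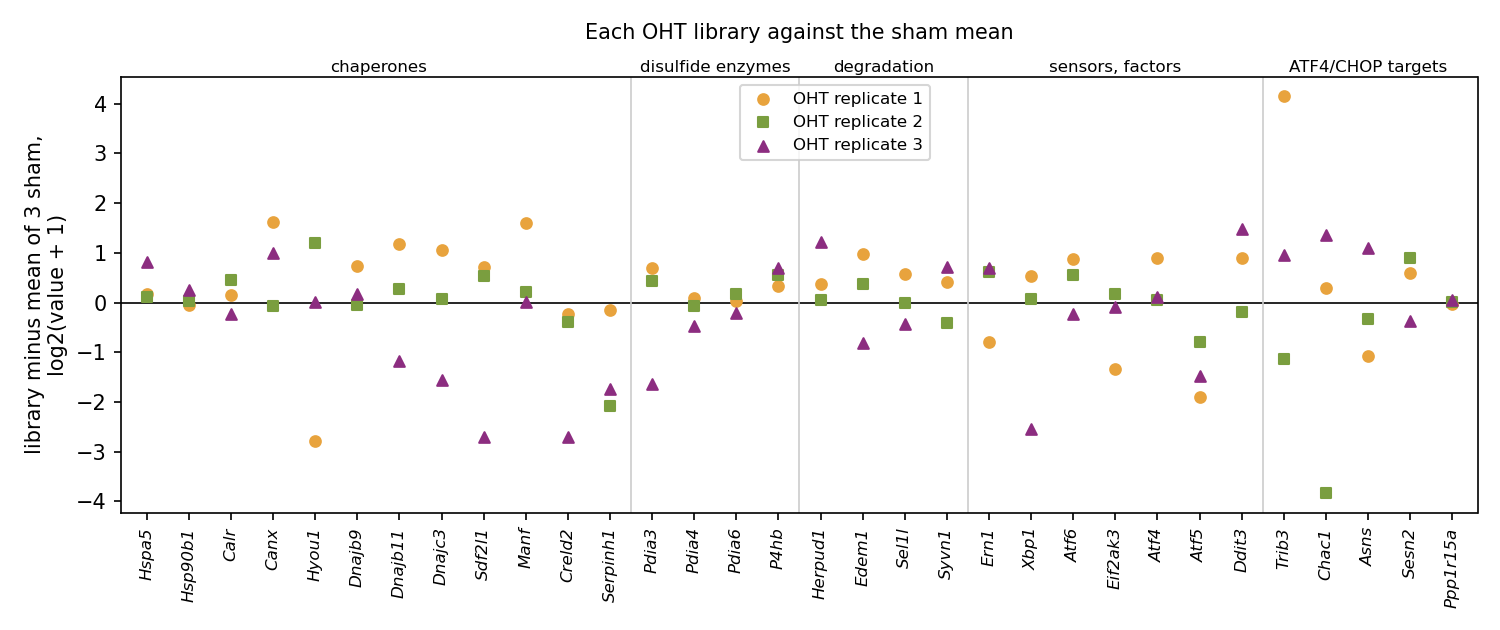
Each OHT library minus the mean of the 3 sham libraries on the log2(value + 1) scale, for the 32 genes ordered by role. Replicate 3 (triangles) is lowest for Sdf2l1, Creld2 and Xbp1 (-2.55), while replicate 1 (circles) reaches 4.15 for Trib3.

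Levels of different genes were compared per length, in ppm per kb of annotated exons (GENCODE M21). In sham the highest levels were those of Ppp1r15a (384.2 ± 92.2), Herpud1 (361.8 ± 106.9), Hspa5 (345.7 ± 48.1) and Pdia3 (298.8 ± 45.6; SD, n = 3). The spreads of these 4 neighbours overlapped, but all were measured in the same 3 libraries, and their order was not tested. Hsp90b1 (251.6 ± 53.2), Pdia6 (195.9 ± 50.2) and Calr (194.6 ± 26.6) came next. At the other end stood Ern1 (0.777 ± 0.566), Hyou1 (0.668 ± 0.267) and Chac1 (0.622 ± 0.732), also with overlapping spreads. The sensor Eif2ak3, at 3.42 ± 2.22 ppm per kb, and Atf6, at 4.74 ± 1.23, were far below the factors Xbp1 (97.7 ± 21.5) and Atf4 (81.3 ± 27.0).

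In the primary cultures, 6 of 12 chaperones and 3 of 4 disulfide isomerases lay above every sorted library, and 3 of 7 sensors and factors lay below. The tables were normalized separately, so levels were set side by side in ppm with no test. All 3 cultures were above all 6 sorted libraries in 14 of 32 genes (43.8%), against 34.6% of 14459 genes, and below all 6 in 7 (21.9%), against 17.6%. Of the ATF4 and CHOP targets 3 of 5 were above and 1 below, of the degradation genes 2 of 4 were above and 2 below, and 0 of 7 sensors and factors were above. Differences between these role groups were not tested. The 12 chaperones together took 1.30% to 1.46% of culture reads and 0.311% to 0.513% of sorted reads, with a culture mean 3.78-fold that of sham. Serpinh1 alone held much of this: without it the other 11 took 0.746% ± 0.0157 of culture and 0.360% ± 0.0624 of sham reads (SD, n = 3), a ratio of 2.07. The 7 sensors and factors took 0.0189% to 0.0210% and 0.0394% to 0.0654%.

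Serpinh1 had the largest gap, at 5647, 6978 and 6626 ppm in culture against 33.8, 102.2 and 82.4 in sham and 14.2 to 36.1 in OHT. The ratio of the culture to the sham mean was 88.1. Asns followed at 178.6, 168.5 and 156.8 ppm in culture, against 2.54, 3.33 and 1.48 in sham and 0.672, 1.68 and 5.33 in OHT, a ratio of 68.5 to sham. Hyou1 reached 34.0, 69.4 and 56.6 ppm, a ratio of 16.7 to sham. Sesn2 stood at 60.2, 95.9 and 95.2 ppm and Chac1 at 11.1, 12.2 and 12.4, with ratios of 14.3 and 11.7. None of these 5 genes overlapped between cultures and sorted cells.

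The other genes above every sorted library had smaller ratios to sham: 5.43 for Manf, 5.03 for Syvn1, 4.17 for Pdia4, 3.54 for P4hb, 3.25 for Pdia6, 3.20 for Hsp90b1, 2.62 for Canx, 2.42 for Calr and 1.81 for Sel1l. Hspa5, at 1802, 2032 and 1988 ppm in culture, was above all sham libraries (1107 to 1466) but not above OHT replicate 3, at 2418. BiP therefore differed less between cultures and sorted cells than Hsp90b1 or the isomerases P4hb, Pdia4 and Pdia6 did.

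Ppp1r15a showed the opposite pattern, with 88.4, 100.4 and 105.5 ppm in culture against 1377, 1167 and 839.8 in sham and 662.8, 1018 and 1219 in OHT. Its sham mean was 11.5-fold that of the cultures. Xbp1 was at 21.6, 33.1 and 37.4 ppm in culture and at 177.4 to 278.0 in sham, 7.60-fold higher in sham, though OHT replicate 3 came near the cultures at 41.7. Edem1 (30.8 to 37.3 ppm in culture, 128.7 to 329.9 in sham) and Herpud1 (134.6 to 211.3 and 525.7 to 934.6) were 6.27-fold and 3.96-fold higher in sham. Ddit3 (2.62-fold), Dnajb9 (2.28-fold) and Atf4 (1.75-fold) completed the 7 genes below every sorted library. Sdf2l1, at 9.94, 26.8 and 32.4 ppm in culture, was 7.48-fold higher in sham but overlapped OHT replicate 3, at 27.8.

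Within the degradation group, Syvn1 and Sel1l were thus above, and Herpud1 and Edem1 below, all sorted libraries. Among the ATF4 and CHOP targets, Asns, Sesn2 and Chac1 were above and Ppp1r15a below. Trib3 overlapped at 4.57, 5.99 and 4.56 ppm in culture against 1.14 to 30.4 in sorted cells. Per kb of exon, Serpinh1 was the most abundant of the 32 in culture (2627 ± 282.3 ppm per kb, SD, n = 3), followed by Hsp90b1 (806.0 on average) and Pdia6 (636.2 ± 22.1). The microglia and macrophage list took 0.0105% to 0.0164% of culture reads against 3.48% to 6.29% of sorted reads, and the mural and fibroblast list 1.62% to 1.92% against 8.88e-04% to 0.0259%. Culture in serum and the antibody sort right after dissociation also differ between these groups. Donor age may differ too, as the cultures came from pups and the age of the operated animals is not stated. These differences cannot be told apart from each other. Taking totals without the 20 highest genes left 13 genes above, without Canx, and 7 below. The shares of all genes above and below were not taken with these totals, so these counts have no background beside them.

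**Figure D4:**
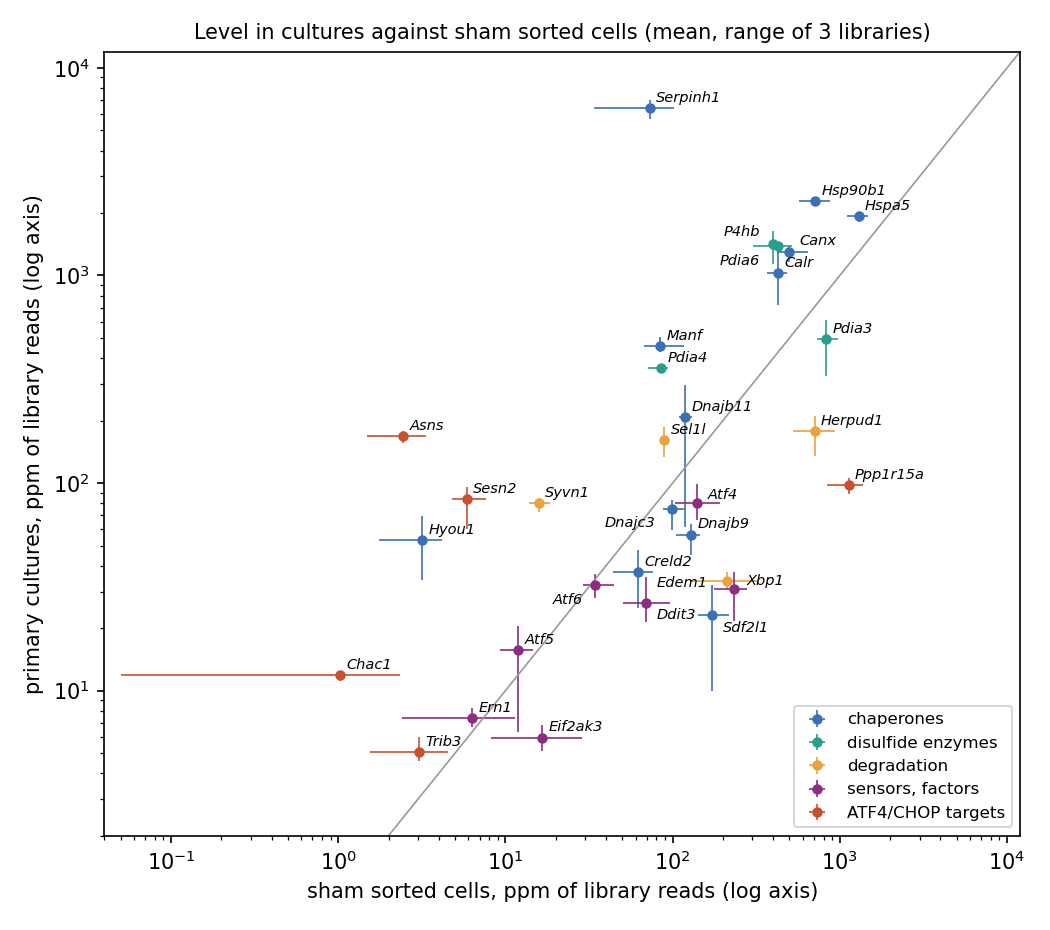
Mean level in the 3 cultures against the mean in the 3 sham libraries, in ppm of library reads on log axes, with bars over the range of the libraries and colours for role; the grey line marks equal levels. Serpinh1 and Asns lie far above the line, Ppp1r15a, Xbp1 and Edem1 below it, and the lower end of the Chac1 bar is drawn short because 1 sham library is at 0.

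The cultures were not uniform for these genes. Dnajb11 had 5055 counts in culture replicate 1 against 20668 and 22965 in the others, 4.32-fold less than their mean. Atf5 (518.4 against 1595 and 1572) and Sdf2l1 (819.3 against 2100 and 2508) were 3.05-fold and 2.81-fold lower in that replicate. Calr went the other way, at 116386 against 74284 and 55799. For the 6 genes named above from those lowest in OHT replicate 3, culture replicate 1 was also the lowest culture: its values for Pdia3 (1.64-fold), Creld2 (1.63-fold), Xbp1 (1.54-fold) and Dnajc3 (1.32-fold) were also under the mean of the other 2 cultures. The rest of the genes lowest in OHT replicate 3 were mixed. Culture replicate 1 was the lowest culture for Sel1l and Sesn2, the highest for Calr and Pdia4, and in between for Edem1. Culture replicate 1 was the lowest culture in 20 of 32 genes (62.5%), against 42.2% of all genes in the culture table. These 6 genes were set side by side after the values were seen, and the libraries come from different cells and tables.

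Genes of the same pathways outside the 32 were summarised from 6 lists, and no gene passed an adjusted p under 0.05 in limma. In the list of ER translocon and glycosylation genes, which bring proteins into the ER, 5 of 19 had an unadjusted p under 0.05, all higher in OHT, beside 5.37% of all genes in that direction. The median log2 difference was 0.49 (0.29 after quantile normalization), beside -0.12 and 0.01 for all genes. The count of 5 was 1 with eBayes without a trend, 1 without sham replicate 2, 3 without sham replicate 3 or OHT replicate 1, and 8 higher with 1 lower without OHT replicate 2. Counts over all genes, in either direction, moved the same way from 1680 of 14403. They were 1362 of 14403 without a trend, 544 of 14314 without sham replicate 2 and 1055 of 14285 without sham replicate 3. Without OHT replicate 1 they were 1224 of 14446, and without OHT replicate 2 they were 2508 of 14391. Sec61g, a subunit of the translocon, had 901.9, 459.4 and 810.4 in sham and 3391, 1514 and 1842 in OHT, 1.60 higher on the log2 scale (SE 0.47, limma adjusted p 0.332). Sec61b and Ssr1 also separated without overlap in the deposited values, at log2 differences of 1.47 (SE 0.51) and 0.99 (SE 0.35). Of all genes, 9.26% were higher without overlap on that scale and 5.44% in ppm. For Sec61b the separation was lost in ppm, where OHT replicate 2 was below sham replicate 1. Over 13530 genes, Spearman's rho between transcript length and the deviation in OHT replicate 1 was -0.25, and its part in these values was not tested.

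Of the genes for eIF2 and its kinases, 3 of 12 had an unadjusted p under 0.05, all higher in OHT, beside 5.37% of all genes in that direction. These were Eif2s2, Eif2s1 and Eif2b2, at log2 differences of 1.03, 0.93 and 0.75. The count of 3 was 0 with eBayes without a trend and without sham replicate 2, and 1 without sham replicate 3. Fewer of all genes reached that level in these fits too. Among sensors and processing genes, 2 of 11 were higher at that level, beside the same 5.37%: Bloc1s1, a known substrate of IRE1 (1.28), and Rtcb, the ligase that joins spliced Xbp1 (0.74). Of 17 other ER folding genes, Erp29 (0.89) and Cnpy2 (0.99) were higher at that level, again beside 5.37%. None of 18 further degradation genes had an unadjusted p under 0.05, beside 11.7% of all genes. Among 31 further targets of ATF4 and CHOP, 3 were higher and 4 lower at that level, beside 5.37% and 6.30% of all genes, and the median was -0.06. After quantile normalization the genes at that level were 3 higher and 1 lower in the translocon list, 2 higher for eIF2, 1 higher for the sensors, 0 for folding, and 3 lower with 0 higher for the targets. With eBayes without a trend it was 1 higher for the sensors, 0 for folding, and 3 lower with 0 higher for the targets; without sham replicate 2 it was 1 higher, 0, and 1 lower with 0 higher.

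Ddit4, a stress-induced inhibitor of mTORC1, had 1101, 1328 and 946.3 in sham and 190.7, 484.0 and 81.7 in OHT. All OHT libraries were below sham, as for 9.18% of all genes in the deposited values. The log2 difference of Ddit4 was -2.50 (SE 0.67, limma adjusted p 0.332), and DESeq2 called it at an adjusted p of 0.0488. Nupr1, Cebpg and Pmaip1 were the higher ones, at log2 differences of 1.21, 0.99 and 0.83, and Vldlr and Slc7a5 were among the lower ones, at -3.15 and -1.57, with limma adjusted p between 0.343 and 0.427. Of these 5 genes, Pmaip1 alone did not overlap between the groups in the deposited values, where 9.26% of all genes were higher without overlap. In ppm, OHT replicate 1 of Pmaip1 was within the sham range.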

How the data were processed

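Per the labels' protocols, cDNA from ultra-low RNA inputs was amplified with a SMARTer kit and read as pairs; bcl2fastq 2.20, Trim Galore 0.6.6, FastQC 0.11.9, STAR 2.7.1a and build mm39 are named in the submitters' processing notes, while for the counting program, the annotation and the normalization the tool is not given in the sources used here. The deposited signal is a gene count that the authors divided by 1 factor per library, not by gene length. When each library was divided by its lowest value above 0, 100.0% of values were whole reads (tolerance 0.05 reads), though the step of culture replicate 3 is too close to 1 for an independent check. Sorted cells and cultures were normalized in separate tables. Every column belonged to a sample. No replicates agreed within sampling noise (chi-square per gene at least 53.8).

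The members and lists were chosen with earlier results of these data known. All 32 genes were named and all passed the filter. OHT and sham were compared with limma 3.58.1 (eBayes with a trend, R 4.3.3) on log2(value + 1), which understates changes of low genes, with Benjamini-Hochberg adjustment over 14403 genes. The labels gave groups and replicate numbers but do not say that replicates are separate animals beyond pools of 4 retinas, so p-values measure the spread between these samples. Alternatives were other pseudocounts, filters, TMM and quantile scaling, eBayes without a trend, a replicate block, leaving out each library, and edgeR 4.0.16 and DESeq2 1.42.0 on recovered reads; ppm of library reads was added after the data were seen. The fits were tested on simulated data with changes larger than any main limma difference of the 32 genes. That test therefore does not show how often changes of the sizes seen here would be found. Of other pathway genes, up to 3 per direction and list with an unadjusted p under 0.05 and a mean of at least 100 were named. Culture levels were compared for genes with at least 0.25 ppm on average in cultures or sorted cells. Gene lengths came from GENCODE M21, whose build may differ from the authors'. The limit at a count of 0 (3 reads) reflects counting error alone, and limma's intervals the spread between libraries; the libraries were amplified and carried no stated molecular identifiers. Figures used Python 3.11.15 and matplotlib 3.10.9.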

Additional observations from a re-analysis of the deposited data

How the results depend on the processing

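In limma 0 of the 32 genes passed under every alternative run, and edgeR and DESeq2 called 0 of 32 too. The count over all genes was 250 with DESeq2, 2 with the replicate block, in which 0 of the 32 passed, and 0 to 17 when 1 library was left out. Same-numbered sham and OHT libraries deviated with correlations of 0.08, -0.02 and -0.05, and differently numbered ones with -0.07 to 0.10. With 3 libraries per group these values cannot show whether the numbers pair the libraries. Log2 differences that changed sign were 0.00 for Sel1l and -0.03 for Ppp1r15a with TMM factors. After quantile normalization they were -0.04 for Hspa5, -0.37 for Hsp90b1, -0.32 for Calr, 0.28 for Hyou1, -0.05 for Dnajb9, -0.19 for Dnajb11, -0.20 for Edem1, -0.24 for Sel1l, 0.03 for Eif2ak3, 0.79 for Asns and -0.38 for Ppp1r15a. In edgeR and DESeq2 they were 0.05 and 0.10 for Hyou1, 0.12 and 0.20 for Dnajc3, 0.01 and 0.09 for Sdf2l1, 0.05 and 0.13 for Pdia3, 0.07 and 0.13 for Asns and -0.07 and -0.01 for Ppp1r15a, and -0.06 for Ern1 in edgeR. Leaving out 1 library gave -0.02 to 0.22 for Hsp90b1, -0.04 to 0.31 for Calr, -1.38 to 0.61 for Hyou1, -0.45 to 0.73 for Dnajb11, -0.74 to 0.57 for Dnajc3, -1.09 to 0.62 for Sdf2l1, -0.60 to 0.57 for Pdia3, -0.27 to 0.02 for Pdia4, -0.19 to 0.13 for Pdia6, -0.22 to 0.68 for Edem1, -0.23 to 0.28 for Sel1l, 0.00 to 0.57 for Syvn1, -0.40 to 0.78 for Ern1, -1.24 to 0.31 for Xbp1, -0.84 to 0.06 for Eif2ak3, -0.09 to 2.55 for Trib3, -2.65 to 0.82 for Chac1, -0.70 to 0.38 for Asns and -0.15 to 0.15 for Ppp1r15a. The cause of these changes was not tested. Groups did not overlap in 2 of the 32 genes on the deposited scale and in 3 in ppm, with Atf5 in both counts. The median culture-to-sham log2 ratio of the 32 genes was 0.65, beside 0.24 for all genes, and 0.35 beside -0.07 with totals that leave out the 20 highest genes. Only Chac1 was at 0 in any library, in 2 sorted ones. Reads were also few in single libraries for other genes: Hyou1 had 12 and Asns 32 in OHT replicate 1, and Trib3 had 61 in OHT replicate 2.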
